A study of Mus musculus with 6 samples.

Results

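The DNA replication and mitosis genes are 50 genes, 26 of chromosome duplication and 24 of chromosome segregation, taken by symbol from a table of 35275 genes. Each symbol matched exactly 1 row. The study sequenced RNA of NIH3T3 cells, an established line of mouse embryo fibroblasts, in 6 libraries. Of these, 3 came from wild-type cells with no treatment and 3 from 3T3NgBR cells, a stable line made by transfection of a plasmid for HA-tagged Nogo-B receptor (NgBR, gene Nus1) and G418 selection. Both were grown in DMEM with penicillin, streptomycin and 10% calf serum. The control line is described with no empty vector and no G418, so that the receptor, the plasmid and the selection cannot be told apart. The labels name neither a clone nor separate cultures behind the numbers, so p-values measure the spread between libraries only, which may be technical.

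Replication begins when origins are licensed in G1 by Cdc6 and Cdt1, which load the Mcm2 to Mcm7 helicase. In S phase Cdc45 and the GINS complex activate that helicase, and polymerases held by the Pcna clamp copy the strands. In mitosis cyclin B with Cdk1 drives entry, the spindle and its checkpoint sort the chromosomes, and the anaphase-promoting complex with Cdc20 ends the phase. Both gene classes are periodic: E2F factors raise the first at the G1 to S boundary, and the MuvB complex with B-Myb and Foxm1 raises the second in G2. Their summed transcript level in a culture is therefore widely used as a sign of how many cells are cycling. In bulk RNA, fewer cycling cells and less RNA per cycling cell cannot be told apart.

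The switches named above leave letters in the promoters, and 5 promoters are printed to show them. RefSeq entries for GRCm38.p6, covering 250 bases before to 50 bases after the start, matched 40 of the 50 genes (21 replication and 19 mitosis). For 28 of the 40 the first 20 bases after the start occur in an annotated transcript of the gene. The starts of the rest were not matched to a transcript. For 4 genes with more than 1 entry the one nearest the annotated gene start was used. Both strands were searched for 4 spellings of an E2F site (TTTCCCGC, TTTGGCGC, TTTCGCGC and TTTGCCGC). They were also searched for the cell cycle homology region (CHR, TTTGAA or TTCGAA) that MuvB complexes contact, and for the CCAAT box of NF-Y. The genes shown are the most abundant per exonic kb that had an entry. Below, capitals mark a match on either strand, and each stretch runs 5′ to 3′ on the gene's strand, all of which are minus strands, and ends at base -1 (Cdc20: base -10). The replication genes are Mcm3 at chr1:20820313-20820512 and Mcm6 at chr1:128359706-128359905, both helicase subunits.
Mcm3: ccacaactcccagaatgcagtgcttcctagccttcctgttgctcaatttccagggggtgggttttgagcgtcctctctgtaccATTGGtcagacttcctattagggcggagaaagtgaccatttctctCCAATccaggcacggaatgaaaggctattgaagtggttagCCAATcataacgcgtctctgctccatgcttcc
Mcm6: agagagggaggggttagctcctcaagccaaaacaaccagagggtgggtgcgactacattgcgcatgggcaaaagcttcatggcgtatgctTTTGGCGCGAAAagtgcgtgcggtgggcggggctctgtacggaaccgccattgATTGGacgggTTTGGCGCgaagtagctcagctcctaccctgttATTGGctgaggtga
The mitosis genes are Cdc20 at chr4:118437353-118437543, Top2a (the topoisomerase that untangles chromosomes) at chr11:99024190-99024389 and Mki67 (the Ki-67 surface protein of mitotic chromosomes) at chr7:135716380-135716579.
Cdc20: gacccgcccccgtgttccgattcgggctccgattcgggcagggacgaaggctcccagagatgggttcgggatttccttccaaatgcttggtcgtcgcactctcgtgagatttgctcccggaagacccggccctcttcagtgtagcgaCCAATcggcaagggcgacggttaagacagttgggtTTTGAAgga
Top2a: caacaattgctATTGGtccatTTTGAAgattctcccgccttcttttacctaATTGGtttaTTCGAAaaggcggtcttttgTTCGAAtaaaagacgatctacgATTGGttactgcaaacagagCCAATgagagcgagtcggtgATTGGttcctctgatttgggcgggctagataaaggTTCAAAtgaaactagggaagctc
Mki67: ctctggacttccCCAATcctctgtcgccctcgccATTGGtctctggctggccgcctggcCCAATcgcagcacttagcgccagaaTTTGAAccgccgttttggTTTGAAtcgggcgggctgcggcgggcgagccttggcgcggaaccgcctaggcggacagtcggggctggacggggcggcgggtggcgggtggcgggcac
Mcm6 shows E2F letters starting at -110, -106 and -47, the first pair overlapping, while the E2F letters of Mcm3 start at 20 and 39, after the start site and outside the stretch shown. Top2a shows 4 CHR copies, Mki67 shows 2 and Cdc20 shows 1, each with CCAAT boxes. Pcna, also among the most abundant, held 1 CCAAT box at -87 and is not printed because annotated exons cover most of its stretch.

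The 2 classes differed in these letters. E2F spellings occurred in 8 of 21 replication promoters (38.1%), in 1 of 19 mitosis promoters (5.26%, Cdk1) and in 2.26% of all 32851 promoters of the table. CHR letters occurred in 15 of 19 mitosis promoters (78.9%), in 5 of 21 replication promoters (23.8%) and in 19.2% of all. CCAAT was found in 89.5% of mitosis and 61.9% of replication promoters against 37.4% of all. CHR and CCAAT stood together in 15 mitosis promoters, in 4 replication promoters and in 7.52% of all. A match is a spelling and not a measured site. The 2 classes, set by the gene lists and not by these letters, were then compared in their RNA levels over all members.

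Wild-type libraries held 29515072 to 35511769 counts and the libraries labelled NgBR overexpression 7369961 to 10358381, so that depth ran with the groups. Nus1 took 212, 187 and 233 CPM (counts scaled to the same total in each library) across the wild-type libraries and 184, 185 and 165 CPM across the labelled ones, each time in the order of their numbers. These counts did not differ by the test (edgeR adjusted p = 0.786). The labels do not give the species of the NgBR sequence in the plasmid, and reads of it may not have been counted at mouse Nus1, so the counts do not decide on the label. Each direction below is that of the labelled libraries. All 12 fibroblast markers were tested, with a summed level of 22300 to 26200 CPM in wild-type and 23500 to 34200 CPM in labelled libraries. Markers of epithelium, endothelium, leukocytes, skeletal muscle and neurons summed to between 0.237 and 22.6 CPM in any library, with Epcam, Krt18, Myod1 and Myog at 0. Of these, muscle markers summed to 1.86 to 3.31 CPM in wild-type and 5.54 to 16.6 CPM in labelled libraries. Neural markers summed to 7.24 to 9.15 CPM and 9.89 to 22.6 CPM. Of 3 tested neural markers 1 differed between the groups (edgeR adjusted p under 0.05), and of 2 tested muscle markers 0 did. The part of these markers in the results was not tested. Cdkn2a and Cdkn2b, the locus that NIH3T3 cells are known to have lost, held 1 count in all 6 libraries together (genes picked after their values were seen).

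No member passed the test between the groups. The quasi-likelihood F test of edgeR, with p-values adjusted (Benjamini-Hochberg) over 12651 genes, called 429 genes (3.39%), and 0 of the 50 members, all of which entered the test. At an unadjusted p under 0.05 there was 1 member, Mki67, against 11.4% of all tested genes. DESeq2 and limma-voom also called 0 members, while DESeq2 called 719 genes (5.68%). The smallest adjusted p was 0.386, that of Mki67.

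Fitted values nevertheless lay mostly on the side of the labelled libraries. The log2 fold change was positive for 48 of the 50 members, 24 of 26 in replication and 24 of 24 in mitosis, where 48.7% of all tested genes were positive. Its median was 0.36 in replication and 0.36 in mitosis, against -0.01 over all tested genes. Only Mcm6 and Ccne1 were not above 0, and both lay within 0.04 of it. The 95% intervals of the members were wider, reaching a median of 0.80 log2 units to each side, against 0.67 over all genes. Their median counts were higher, at 2235.5 against 874 in wild-type and 720 against 242 in labelled libraries. They spread more between libraries, with a median SD of log2 CPM of 0.64 against 0.27 in wild-type and 0.45 against 0.38 in labelled libraries. For 20 of the 50 members (40%) the interval excluded a 2-fold difference in both directions, against 54.5% of all genes.

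**Figure D1:**
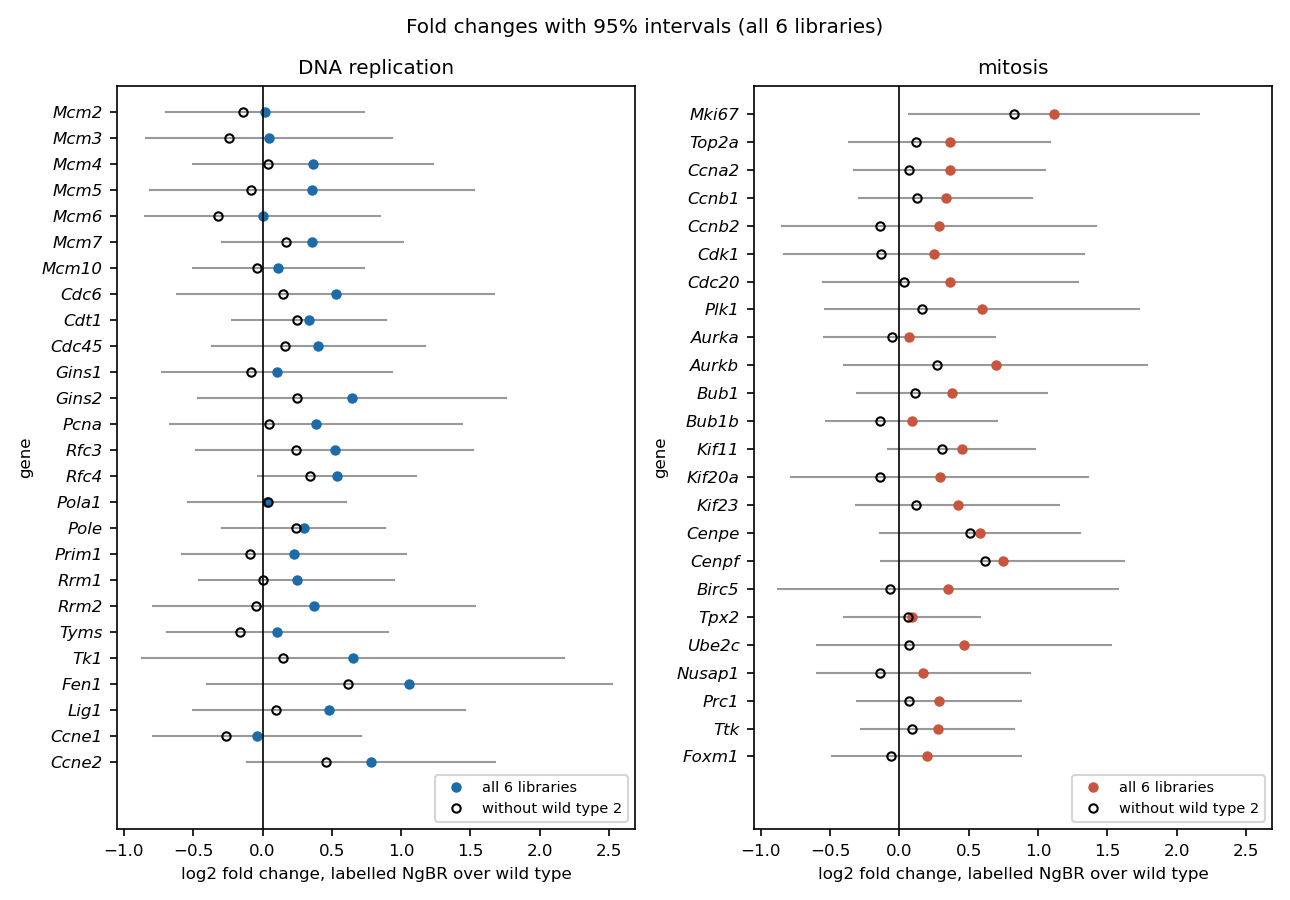
Log2 fold change of each gene (x axis, labelled NgBR over wild type) with its 95% interval (bars) for replication (left) and mitosis (right). Filled points use all 6 libraries and open points leave out wild-type library 2; 48 filled points are above 0, against 31 open ones.

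Most of this shift went with 1 library. Without wild-type library 2 the median log2 fold change was 0.05 in replication and 0.07 in mitosis, and 31 of 50 members were positive, where 49.1% of all genes were. The value was smaller without that library for 49 of 50 members and turned its sign for 17. No member was called there either, with 2.66% of genes called and a smallest adjusted p of 0.655 (Mki67, edgeR). Other libraries moved the medians less: leaving out labelled library 1 gave 0.18 in replication and 0.32 in mitosis, labelled library 2 gave 0.54 and 0.38, and labelled library 3 gave 0.20 and 0.26. Leaving out wild-type library 1 gave 0.45 and 0.51, and wild-type library 3 gave 0.56 and 0.56.

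In wild-type library 2 the members were low, as the choice of these genes already held, and this is given as a description. It was the lowest of the 6 libraries for 42 of 50 members, 21 of 26 in replication and 21 of 24 in mitosis, against 23.7% of all tested genes. Compared with the other wild-type libraries alone, it was lower than both for 49 members, the exception being Pola1, against 46.3% of all genes. Its level was under 0.5 times the mean of wild-type libraries 1 and 3 for 28 members (15 replication, 13 mitosis), against 8.15% of all genes. The median of that ratio was 0.467 in replication, 0.476 in mitosis and 0.982 over all genes. Wild-type libraries 1 and 3 by contrast differed by a median of 0.12 log2 units over the members, as over all genes.

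**Figure D2:**
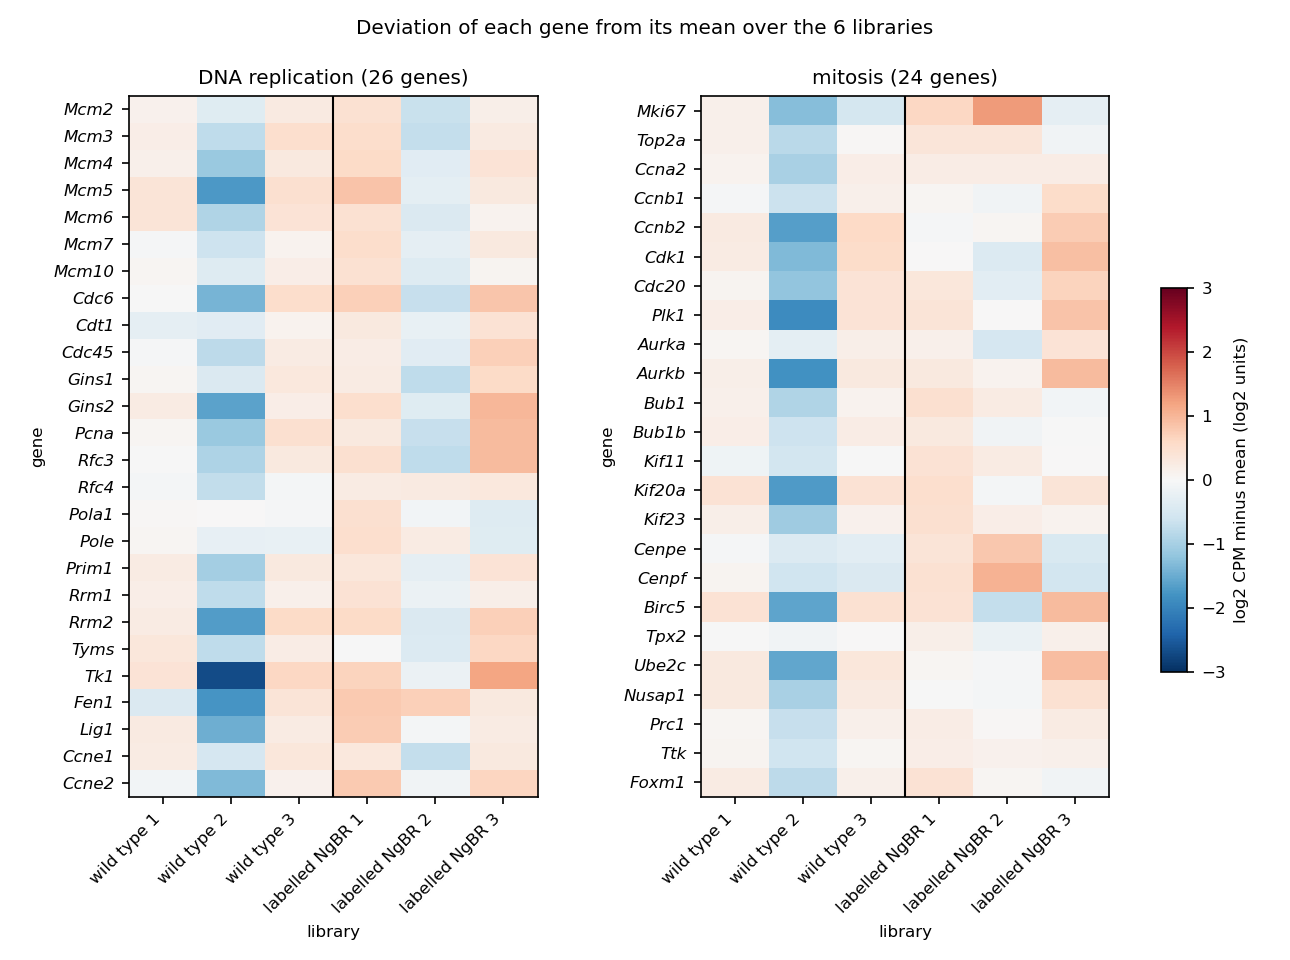
Each row is a gene and each column a library; colour is log2 CPM minus the gene's mean over the 6 libraries, for 26 replication (left) and 24 mitosis genes (right). Wild-type library 2 is the lowest for 42 of the 50 genes, and labelled library 2 is low for replication genes but holds the highest values of Mki67, Cenpf and Cenpe.

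Among the replication genes the licensing and helicase group comprised 12 members. Mcm2, a subunit of the helicase, was at 172, 124 and 191 CPM in the wild-type libraries, in order, and at 217, 99.3 and 178 CPM in the labelled ones. Mcm4 was at 162, 68.1 and 180 CPM and then at 217, 116 and 195 CPM. Mcm5 was at 188, 43.1 and 200 CPM and then at 258, 117 and 176 CPM. In each of these the second library of both groups was the lowest of its group, and the groups overlapped. The same held for all 12 licensing and helicase genes, each of which was lowest in library 2 of the wild-type group and of the labelled group.

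For Mcm4 the log2 fold change was 0.37 with an SE of 0.38 and a 95% interval of -0.50 to 1.23 (edgeR adjusted p = 0.831), and for Mcm7 it was 0.36 with an SE of 0.29 (adjusted p = 0.760). Cdc6, the licensing ATPase that is made afresh in each G1, was at 21.6, 8.26 and 31.2 CPM in wild-type and at 35.9, 13.5 and 38.8 CPM in labelled libraries. Gins2, a subunit of the GINS complex, was at 20.2, 5.55 and 19.7 CPM and then at 24.1, 13.3 and 33.7 CPM, and 67.3% of its exonic length lies in exons of Gse1 on the other strand. Cdt1 was at 37.8, 36 and 48.7 CPM and then at 55.3, 38.6 and 60.8 CPM, so that wild-type library 2 lay only 1.20-fold under the mean of the other wild-type libraries. Cdt1 protein is controlled largely by its destruction in S phase. Within this group the ratio of wild-type library 2 to the other wild-type libraries ran from 0.222 in Mcm5 to 0.832 in Cdt1.

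The fork group held the clamp, its loader, polymerases and the enzymes that finish the lagging strand. Pcna, the sliding clamp, was at 109, 48.3 and 144 CPM in wild-type and at 127, 64.7 and 202 CPM in labelled libraries. Rfc4, a subunit of the clamp loader, was at 18, 11.1 and 18 CPM and then at 22.2, 22.7 and 23.4 CPM, and its groups did not overlap (log2 fold change 0.54, SE 0.25, edgeR adjusted p = 0.473). Pola1, the catalytic subunit of the priming polymerase, was at 88.9, 88.2 and 84.6 CPM and then at 120, 81.4 and 65.9 CPM. Pola1 was thus level across the wild-type libraries and lowest in labelled library 3. Pole, the leading-strand polymerase, was at 69.3, 55.6 and 57.0 CPM and then at 94.3, 78.2 and 51.2 CPM. Its lowest library was also labelled library 3, and Pola1 and Pole had the longest principal transcripts of the class, at 5.35 and 7.16 kb. Lig1, which joins the lagging-strand pieces, was at 170, 50.5 and 167 CPM and then at 239, 134 and 167 CPM.

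Fen1, the flap nuclease that trims those pieces, was recorded at 0.487, 0.135 and 0.933 CPM in wild-type and at 1.26, 1.19 and 0.860 CPM in labelled libraries, far under the other members. The gene lies on the minus strand of chromosome 19 at 10199132 to 10204169, and 84.2% of its exonic length is shared with exons of other genes, 78.8% with Gm10143 on the plus strand. Reads over shared exons can be assigned to either gene or to none, and the strand setting of the counting is not known here. Its fold change, 1.06 on the log2 scale with an SE of 0.65 (edgeR adjusted p = 0.641), rests on 4 to 31 counts per library.

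The nucleotide supply genes showed the widest gap. Tk1, thymidine kinase of the salvage route (chromosome 11, 117815526 to 117826092, minus strand), was at 64.5, 7.48 and 74.7 CPM in wild-type libraries and at 77.3, 43.4 and 110 CPM in labelled libraries. Wild-type library 2 was 9.31-fold under the mean of the other wild-type libraries, the largest such fold among the 50 members. Rrm2, the S-phase subunit of ribonucleotide reductase, was at 111, 29.2 and 140 CPM and then at 139, 69.7 and 155 CPM. Its partner Rrm1 was at 321, 165 and 311 CPM and then at 377, 250 and 319 CPM. Tyms, which makes thymidylate, was at 49.9, 23.0 and 46.0 CPM and then at 38.6, 29.5 and 60.1 CPM.

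Cyclin E activates Cdk2 at the start of S phase. Ccne2 was at 13.9, 5.82 and 16.2 CPM in wild-type and at 25.4, 13.7 and 23.0 CPM in labelled libraries, the second highest fold change of its class (0.78, SE 0.40, edgeR adjusted p = 0.522). Ccne1 was at 39.9, 23.4 and 42.4 CPM and then at 41.4, 20.5 and 41.3 CPM. The cyclins E thus had library 2 lowest in both groups, and Ccne1 was level between the groups.

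Among the mitosis genes Mki67 had the largest fold change. Mki67 (chromosome 7, 135689784 to 135716361, minus strand) was at 503, 187 and 311 CPM in wild-type libraries and at 696, 1100 and 373 CPM in labelled libraries. Group means were 333 ± 159 and 723 ± 364 CPM (SD, n = 3), and labelled library 3 lay inside the wild-type range. The log2 fold change was 1.12 (SE 0.46, 95% interval 0.07 to 2.16, edgeR adjusted p = 0.386), 0.83 without wild-type library 2 and 0.39 without both libraries numbered 2. Top2a was at 697, 356 and 638 CPM and then at 800, 796 and 578 CPM. Per exonic kb, Cdc20 (84.4 CPM per kb), Top2a (71.5) and Mki67 (52.5) were the most abundant of the 50 members as means over the 6 libraries.

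Cyclins, Cdk1, Foxm1 and the genes of the anaphase-promoting complex were 7 members, and all 7 were lowest in wild-type library 2. Ccna2, the cyclin that spans S phase and G2, was at 132, 61.6 and 139 CPM in wild-type and at 143, 142 and 143 CPM in labelled libraries. Its groups did not overlap, by the narrow margin between 139 and 142 CPM, and its log2 fold change was 0.36 (SE 0.31, edgeR adjusted p = 0.775). Ccnb1 was at 88.7, 58.0 and 101 CPM and then at 94.7, 84.7 and 133 CPM, and Ccnb2 at 17.6, 4.53 and 22.0 CPM and then at 14.2, 15.1 and 24.5 CPM. These 2 forms of cyclin B differed in wild-type library 2, with a ratio to the other wild-type libraries of 0.611 in Ccnb1 and 0.229 in Ccnb2. Cdk1 was at 72.5, 24.3 and 89.5 CPM and then at 61.2, 45.8 and 114 CPM. Foxm1, the transcription factor of G2 genes, was at 156, 76.2 and 146 CPM and then at 176, 136 and 122 CPM.

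Cdc20, the activator of the anaphase-promoting complex, was at 154, 64.2 and 195 CPM and then at 185, 117 and 232 CPM. Ube2c, the ubiquitin carrier of the same complex, was at 89.3, 24.7 and 92.7 CPM and then at 76.2, 71.3 and 138 CPM. Both were highest in labelled library 3.

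Kinases and checkpoint genes differed in how low they were in wild-type library 2. Plk1, the polo kinase of mitotic entry, was at 60.8, 14.2 and 70.1 CPM in wild-type and at 69.0, 53.6 and 96.4 CPM in labelled libraries (log2 fold change 0.59, SE 0.50, edgeR adjusted p = 0.775). Aurkb, kinase of the chromosomal passenger complex, was at 59.0, 14.7 and 64.0 CPM and then at 64.7, 56.3 and 102 CPM, and its partner Birc5 at 63.7, 15.6 and 64.1 CPM and then at 63.3, 28.5 and 90.9 CPM. Aurka, the spindle pole kinase, was at 49.9, 38.9 and 53.8 CPM and then at 53.2, 33.3 and 63.3 CPM, and its activator Tpx2 at 197, 184 and 200 CPM and then at 225, 173 and 221 CPM. The passenger pair was thus at 0.239 and 0.244 times the other wild-type libraries in library 2, and the spindle pole pair at 0.750 and 0.927 times. Ttk, a checkpoint kinase, was at 24.1, 15.1 and 23.9 CPM and then at 26.2, 24.9 and 25.3 CPM, with groups that did not overlap (log2 fold change 0.28, SE 0.24, adjusted p = 0.791). Bub1 was at 79.9, 38.6 and 77.0 CPM and then at 100, 85.5 and 68.5 CPM.

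Spindle motors and kinetochore proteins included Cenpf and Cenpe, which with Mki67 had the longest principal transcripts of the 50 members. Kif11, the motor that pushes spindle poles apart, was at 135, 101 and 145 CPM in wild-type and at 198, 174 and 148 CPM in labelled libraries, again without overlap (log2 fold change 0.45, SE 0.24, edgeR adjusted p = 0.539). Kif20a, a midzone motor, was at 93.2, 21.4 and 94.3 CPM and then at 98.0, 67.0 and 90.9 CPM. Cenpe, the kinetochore motor, was at 192, 149 and 157 CPM and then at 258, 343 and 144 CPM. Cenpf, a protein of the outer kinetochore, was at 247, 155 and 173 CPM and then at 319, 485 and 161 CPM (log2 fold change 0.75, SE 0.39, adjusted p = 0.539). For Cenpe and Cenpf labelled library 2 was the highest of the 6 and labelled library 3 lay near the lowest wild-type value.

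Rfc4, Ccna2, Kif11 and Ttk were the 4 members of 50 whose groups did not overlap, all with the labelled libraries higher, and 0 did so with them lower. Over all tested genes 9.21% were separated with the labelled libraries higher and 9.37% with them lower. On the higher side the members' count is 8% and close to the background of 9.21%, while on the lower side it is 0 against 9.37%.

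Replication and mitosis were then set against each other within each library, as the mean deviation of log2 CPM from the 6-library mean. Replication genes stood at 0.11, -0.98 and 0.27 in the wild-type libraries, in order, and at 0.48, -0.31 and 0.43 in the labelled ones. Mitosis genes stood at 0.15, -1 and 0.16 and then at 0.29, 0.09 and 0.30. In wild-type library 2 both classes were therefore low by about the same amount. In labelled library 2 both stood below the other labelled libraries, replication genes further than mitosis genes. The difference, mitosis minus replication, was 0.05, -0.02 and -0.11 in the wild-type libraries and -0.19, 0.41 and -0.13 in the labelled ones. Its group means were -0.03 ± 0.08 and 0.03 ± 0.33 (SD, n = 3 each), a difference of 0.06 that is smaller than the spread. Without labelled library 2 the difference was -0.13.

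**Figure D3:**
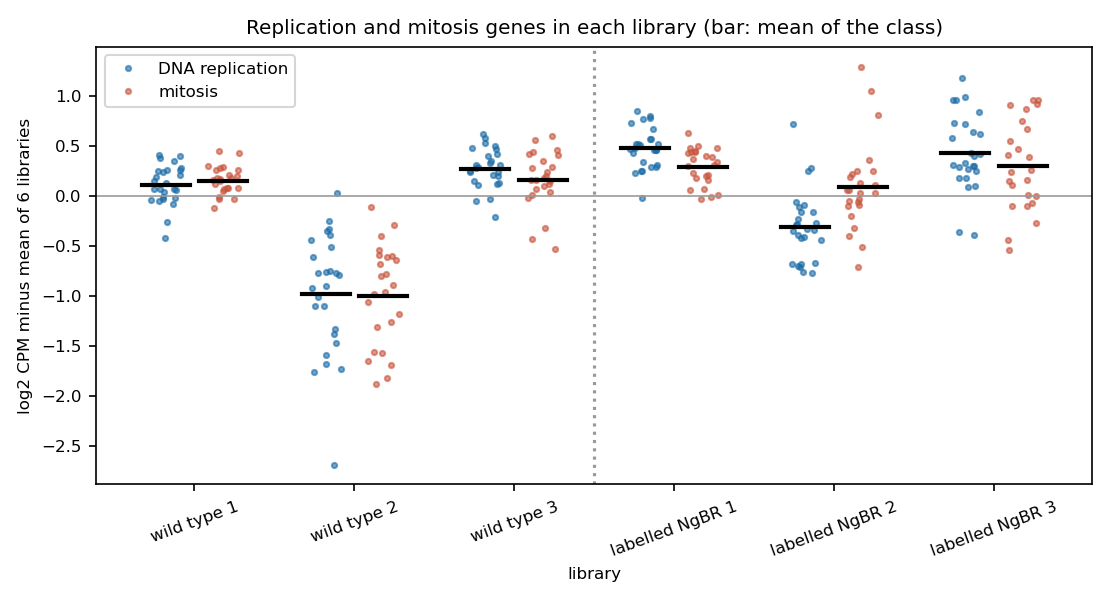
Each point is a gene's log2 CPM minus its mean over the 6 libraries (y axis), by library (x axis) and class (colour); black bars are class means. Both bars are near -1 in wild-type library 2, and in labelled library 2 the replication bar is at -0.31 and the mitosis bar at 0.09.

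Summed over the class, replication genes took 2390, 1180 and 2590 CPM in wild-type libraries and 3000, 1680 and 2680 CPM in labelled libraries. Mitosis genes took 3560, 1850 and 3310 CPM and then 4200, 4430 and 3520 CPM. The high sum of labelled library 2 came with Mki67, Cenpe and Cenpf: without these 3, picked after their values were seen, the mitosis sums were 2620, 1350 and 2670 CPM in wild-type libraries and 2930, 2510 and 2840 CPM in labelled ones. Of the replication genes, 22 of 26 were lower in labelled library 2 than in both other labelled libraries, and of the mitosis genes 15 of 24, against 39.0% of all tested genes. The median ratio of labelled library 2 to the mean of labelled libraries 1 and 3 was 0.564 in replication, 0.823 in mitosis and 0.986 over all genes.

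In labelled library 2 the deviation of a gene went with its transcript length. The 2 classes had median principal transcript lengths of 2.94 kb in replication and 3.21 kb in mitosis. Over the 50 members the Spearman correlation between the deviation and the length of the principal transcript was 0.405 in labelled library 2 and -0.733 in labelled library 3. Over the 11624 tested genes with such a length it was 0.434 and -0.573, so that the relation is one of the whole libraries. Mki67 (10.1 kb), Cenpe (7.91 kb) and Cenpf (11.1 kb) were the 3 mitosis genes highest in labelled library 2, and their principal transcripts are the longest of the 50. Without them, a choice made after their values were seen, mitosis minus replication in labelled library 2 was 0.27 in place of 0.41. With an offset for exonic length it was 0.37, and with one for principal transcript length, added later, it was 0.32. Among the 25 members up to the median length of 2.99 kb it was 0.23, and among the 25 longer ones 0.55. The part of length in this contrast was not tested.

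**Figure D4:**
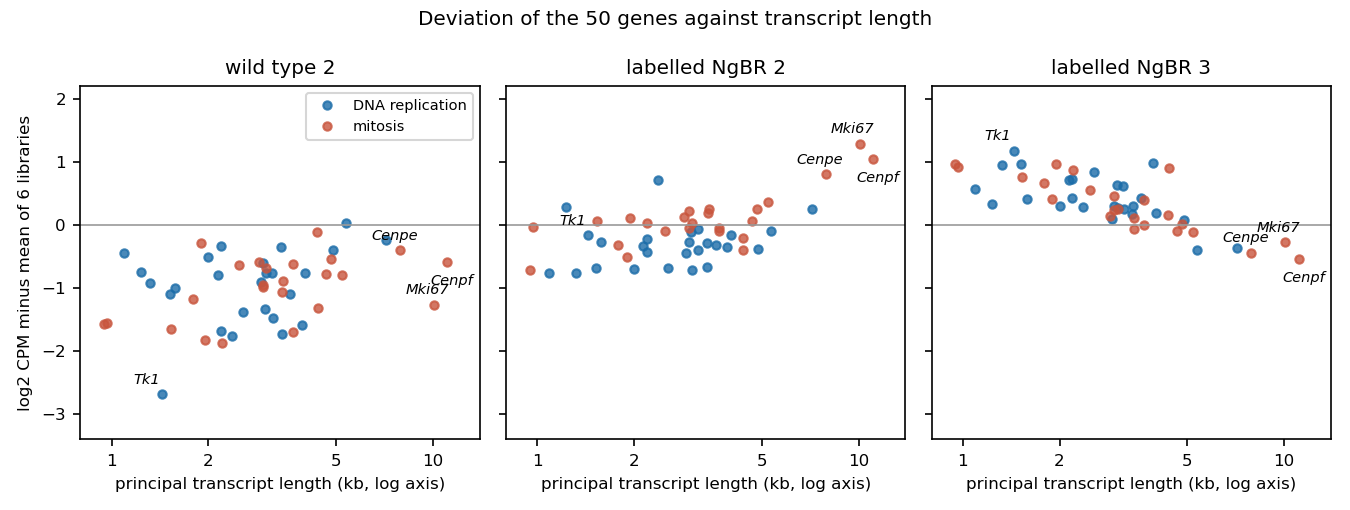
Log2 CPM minus the 6-library mean (y axis) against principal transcript length in kb (x axis, log scale) for the 50 genes in wild-type library 2 and labelled libraries 2 and 3. Mki67, Cenpf and Cenpe lie highest in labelled library 2 and low in labelled library 3, while Tk1 is the lowest point in wild-type library 2.

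In wild-type library 2 the members were low across lengths. There the correlation with principal transcript length was 0.320 over the members and 0.264 over the tested genes with such a length. The shorter 25 members were at a mean deviation of -1.12 and the longer 25 at -0.85, so that both sets were low. With an offset for exonic length the means of replication and mitosis there were -0.95 and -0.99, and with one for principal transcript length -0.94 and -1. The part of length in the low level was not tested.

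Other genes of the cell cycle were read from lists outside the members, none of which held a called gene. Of 36 further replication genes 34 had a positive log2 fold change (median 0.27) and 28 were lowest in wild-type library 2, and of 51 further mitosis genes 50 were positive (median 0.38) and 48 were lowest there. Dnmt1, the maintenance DNA methyltransferase, was at 253, 98.7 and 259 CPM in wild-type and at 342, 269 and 243 CPM in labelled libraries. Rpa1, which coats single-stranded DNA, was at 267, 164 and 298 CPM and then at 412, 228 and 302 CPM. Anln, the actin-binding protein of the cleavage furrow, was at 289, 192 and 293 CPM and then at 388, 368 and 274 CPM. Smc4, a condensin subunit, was at 260, 289 and 267 CPM and then at 312, 322 and 273 CPM, and was not low in wild-type library 2.

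The lists upstream of these genes were less uniform. Over all 12651 tested genes 2992 were lowest and 3163 highest in wild-type library 2. Of 8 G1 cyclins and kinases 3 were lowest and 2 highest in wild-type library 2, and the median log2 fold change was -0.17. Cdk4 was at 475, 291 and 474 CPM in wild-type libraries and at 344, 251 and 462 CPM in labelled ones, and Ccnd2, a cyclin D, at 280, 651 and 271 CPM and then at 290, 419 and 180 CPM. Of the 18 tested E2F, RB and DREAM factors 7 were lowest and 0 highest in wild-type library 2 (median log2 fold change 0.20), among them Tfdp1, the E2F partner, at 120, 74.0 and 142 CPM and then at 138, 103 and 168 CPM, while Rbbp4 was at 342, 264 and 343 CPM and then at 322, 235 and 323 CPM. Of 12 origin recognition and firing genes 4 were lowest and 5 highest there (median 0.12), Topbp1 at 134, 62.4 and 155 CPM and then 183, 123 and 156 CPM, and Dbf4 at 62.9, 65.7 and 64.7 CPM and then 67.6, 55.1 and 74.5 CPM.

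All 4 tested Cdk inhibitors had a positive log2 fold change (median 0.46, smallest 0.01 in Cdkn2c), against 48.7% of all tested genes. Of these 4 genes 3 were lowest in wild-type library 2, against 23.7% of all tested genes, and 0 were called. Cdkn1a, the p21 inhibitor, was at 231, 143 and 257 CPM in wild-type and at 245, 255 and 322 CPM in labelled libraries, lowest in wild-type library 2. Cdkn1b, the p27 inhibitor, was at 96.6, 112 and 114 CPM and then at 109, 217 and 144 CPM, highest in labelled library 2. The p53 targets Ccng1 (440, 239 and 417 CPM, then 467, 319 and 308 CPM) and Phlda3 (187, 125 and 214 CPM, then 228, 135 and 273 CPM) were also lowest in wild-type library 2. Of 14 tested p53 targets 4 were lowest and 5 highest there, against 2992 and 3163 of all 12651 tested genes. Picked after their values were seen, Myc was at 284 CPM in wild-type library 2 against 52.7 to 93.4 CPM in the other 5, Gadd45a at 61.2 against 5.19 to 10.2 CPM, and Orc2 at 126 against 25.2 to 49.3 CPM. Myc drives growth, Gadd45a responds to stress and DNA damage, and Orc2 is a subunit of the origin recognition complex.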

How the data were processed

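The authors deposited raw, unnormalized counts for each gene of 3 wild-type and 3 labelled libraries. Per the submitters' processing notes, the tools included HISAT2 2.0.5 and featureCounts 1.5.0-p3 with build mm10. Not given in the sources used here are the annotation, strand setting and filters. Per the labels' protocols, total RNA entered a SMARTer mRNA-seq kit.

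From the counts, edgeR 4.0.16 in R 4.3.3 was run with TMM factors, filterByExpr and the quasi-likelihood test, which kept 12651 genes. A gene was called at an adjusted p under 0.05, over all tested genes. CPM used TMM-scaled library sizes, and deviations used log2 CPM with a prior count of 2. Gene positions, lengths and principal transcripts came from GENCODE M21, which held 97.8% of the identifiers, and promoters from RefSeq. The members and all lists were chosen with earlier results of these data known, and no list was tested. All 50 members could be named, as could the 2 most abundant genes of each other list without a called gene. With each group centred on its own mean, libraries with the same number had correlations of 0.0147, 0.341 and 0.434. Those with different numbers had correlations of -0.399 to 0.189. The labels state no pairs, so the main fit used none, and an effect shared by the number was not tested. Alternatives were DESeq2 1.42.0, limma-voom 3.58.1, other scalings, filters and length offsets, thinning, the number as a block, and leaving out libraries. Samples were grouped by title, and reads were not deduplicated by molecule.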

Additional observations from a re-analysis of the deposited data

How the results depend on the processing

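No member was called under any of 19 alternatives, and the smallest adjusted p of a member, 0.0689 for Ccne2 by edgeR, came with the replicate block. That block takes libraries with the same number as pairs, which the labels do not state. With it 11 members had an unadjusted edgeR p under 0.05, against 1 in the main fit. The share of all genes at that limit was not counted, so the 11 are not read as a result about the members. The fit with the block called 719 genes (5.68%), as did DESeq2, against 3.39% in the main fit. The number of tested genes changed with some alternatives. Without a filter on low counts 688 of 21036 were called (3.27%), and 257 of 11539 (2.23%) after thinning to the shallowest library. Leaving out 1 library gave 225 to 374 called genes (1.66% to 2.77% of those tested). There were 250 (2.07%) without wild-type library 1, 225 (1.66%) without labelled library 1 and 274 (2.02%) without labelled library 3. Of 422 recomputed values 413 counted as the same under loose limits. A class median counted as the same within the spread between libraries (0.53 log2 units in replication, 0.46 in mitosis). That includes the fall of the replication median from 0.36 to 0.05 without wild-type library 2. Most of the 422 were single-gene values of members that kept their sign under every alternative. As no member was called either, those values could only count as the same. The difference between mitosis and replication ran from -0.13 to 0.17 when 1 library was left out, and was -0.13 without both libraries numbered 2, with the sign set by labelled library 2. Of the 50 members 29 kept their sign under every alternative and 21 turned it at least once. The number of positive members was 31 without wild-type library 2 and 38 to 50 under the others, 38 being the value without labelled library 3. Depth was lower in the labelled group, which limits its least abundant members such as Fen1.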
